A study of Mus musculus with 5 samples.

Results

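The core spliceosome proteins described here are the 54 protein-coding genes of the table whose symbols begin with Prpf, Sf3a, Sf3b or Snrp, or with Lsm and a digit, together with *U2af1*, *U2af2*, *Eftud2*, *Cdc5l*, *Aqr* and *Bud31*. *Snrpn* was left out. The naming rule also takes in *Lsm1*, *Lsm10*, *Lsm11*, *Lsm12*, *Lsm14a* and *Lsm14b*, whose roles outside the spliceosome are given below, and the counts of members include them. The members are 54 of the 21019 genes with values, of which 15046 are protein-coding, and they were chosen by name and not by their levels. RNA was sequenced from 3 samples labelled *Pfn1*-KO and 2 control samples, each a pool of 3 mice at 3 weeks of age. *Pfn1*-KO mice were *Pfn1* fl/fl, with loxP sites around exon 1, and controls were *Pfn1* +/+. Both groups carried Pod-Cre, a podocyte-specific Cre, the Rosa-Dtr fl allele of the diphtheria toxin receptor and the TRAP allele, on a C57BL/6 background. In TRAP (translating ribosome affinity purification) Cre switches on a GFP-tagged ribosomal protein L10a, here in podocytes, and the RNA on tagged ribosomes is pulled down. The methods describe this pulldown, while the labels describe untreated glomerular podocytes from kidney and poly(A) RNA taken with a column kit. The libraries are called Pfn1-KO N2, Pfn1-KO N3, Pfn1-KO N4, control N1 and control N3, after the column names of the table.

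The spliceosome cuts introns out of pre-mRNA and joins the exons. It is built on each intron from small nuclear ribonucleoproteins (snRNPs), in which a small nuclear RNA carries a ring of Sm or LSm proteins and proteins particular to that snRNP. The U1 snRNP reads the 5′ splice site, U2AF and the U2 snRNP read the 3′ splice site and the branch point, and the U4/U6.U5 tri-snRNP then joins and is rearranged into the catalytic centre. Every cell type of the kidney that makes mRNA uses these proteins.

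Levels are given as FPKM, fragments per kilobase of gene per 1000000 reads, as deposited, and log2 fold changes are those of log2(FPKM + 1), a scale that understates the change of low genes. Where parentheses after a level open with a number, it is this log2 fold change. Library sizes recovered from these values ran from 18186900 to 24871893 reads, and a gene of 2 kilobases with a single read stands at 0.0201 to 0.0275 FPKM. The *Pfn1*-KO-labelled libraries had 20435 to 20980 genes above 0, against 6901 and 7528 genes in the controls. The rRNA gene CT010467.1 stood at 346, 133787 and 194 FPKM in Pfn1-KO N2, N3 and N4, against 291221 and 311036 FPKM in control N1 and N3. *Pfn1* itself, which lies at chr11:70651850-70654644 on the minus strand, stood at 41.9, 17.2 and 27.8 FPKM in the *Pfn1*-KO-labelled libraries, against 13.6 and 11.8 FPKM in the controls. Its log2 fold change was 1.05 (SE, standard error, 0.56, adjusted p = 0.123, limma with Benjamini-Hochberg), and a value over the whole gene also counts exons outside the floxed one. Since the targeted gene was not lower, the group is named by its label throughout. Of 8 podocyte markers (summed level 123 to 437 FPKM in the *Pfn1*-KO-labelled libraries and 22.3 to 49.1 FPKM in the controls), 6 did not overlap and were higher, and of the defining genes *Ptpro* was listed at 0 in control N3 and *Wt1* in control N1. Higher without overlap were also all 8 proximal tubule markers (1107 to 2449 FPKM against 33.9 and 57.1 FPKM), all 4 thick limb and distal tubule markers (331 to 549 FPKM against 7.17 and 7.85 FPKM) and all 4 endothelial markers (33.2 to 45.5 FPKM against 2.20 and 2.702 FPKM), as well as 2 of 3 collecting duct, 3 of 4 mesangial and smooth muscle and 0 of 4 immune markers. These levels and the number of genes above 0 move with the groups, and their part in the results below was not tested. In samples of many cells, fewer cells of a type and less RNA per cell cannot be told apart, and with nothing to say that the pools of a group came from separate preparations, p-values measure only the spread between these samples.

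Most core spliceosome genes stood higher in the *Pfn1*-KO-labelled libraries, in a comparison in which most genes did. Of the 54 members, all of which passed the filter on low values, 32 were called higher (59.3%) and 2 were called lower (3.70%), by limma on log2(FPKM + 1) with a Benjamini-Hochberg adjusted p under 0.05. Of all 14631 genes tested, 70.1% were called higher and 2.13% were called lower. Of the 11844 protein-coding genes tested, as all members are, 73.2% were called higher and 2.15% lower, with a median log2 fold change of 1.93. The members' share called higher thus lay below that of all genes and that of protein-coding genes. The median log2 fold change was 1.56 over the members, where it turned to -0.44 under quantile normalization, and 1.75 over all genes tested. It was again 1.56 with members at 0 in both controls set to 3 reads per library, and 30 of the 54 members lay below the median of all genes. In FPKM as deposited, the groups did not overlap and the *Pfn1*-KO-labelled libraries were all higher for 35 members, and all lower for 5 members. The same held for 80.1% and 3.49% of all genes tested. Without Pfn1-KO N2, 19 members were called higher and 1 lower, and without control N1, 28 higher and 5 lower.

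Members that both controls list at 0 made up 10 of the 32 called higher, and were *Lsm1*, *Lsm2*, *Lsm5*, *Lsm10*, *Sf3a2*, *Sf3b4*, *Sf3b5*, *Sf3b6*, *Snrpc* and *Snrpf*. No member was at 0 in any *Pfn1*-KO-labelled library, while 21 were listed at 0 in control N1 and 15 in control N3. Both controls list at 0 41% of all genes tested, 32.2% of the protein-coding genes tested and 42.6% of all protein-coding genes with values. Another 11 members were at 0 in control N1 alone and 5 in control N3 alone, so which members were missing differed between the controls. Among the 44 members above 0 in at least 1 control, 22 were called higher and 2 lower, and of all such genes 59.4% were called higher and 3.62% lower. Among the 28 members above 0 in every library, 11 were called higher and 2 lower with a median log2 fold change of 0.69, while all 4599 such genes had 51.9% higher, 6.48% lower and a median of 1.46.

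**Figure D1:**
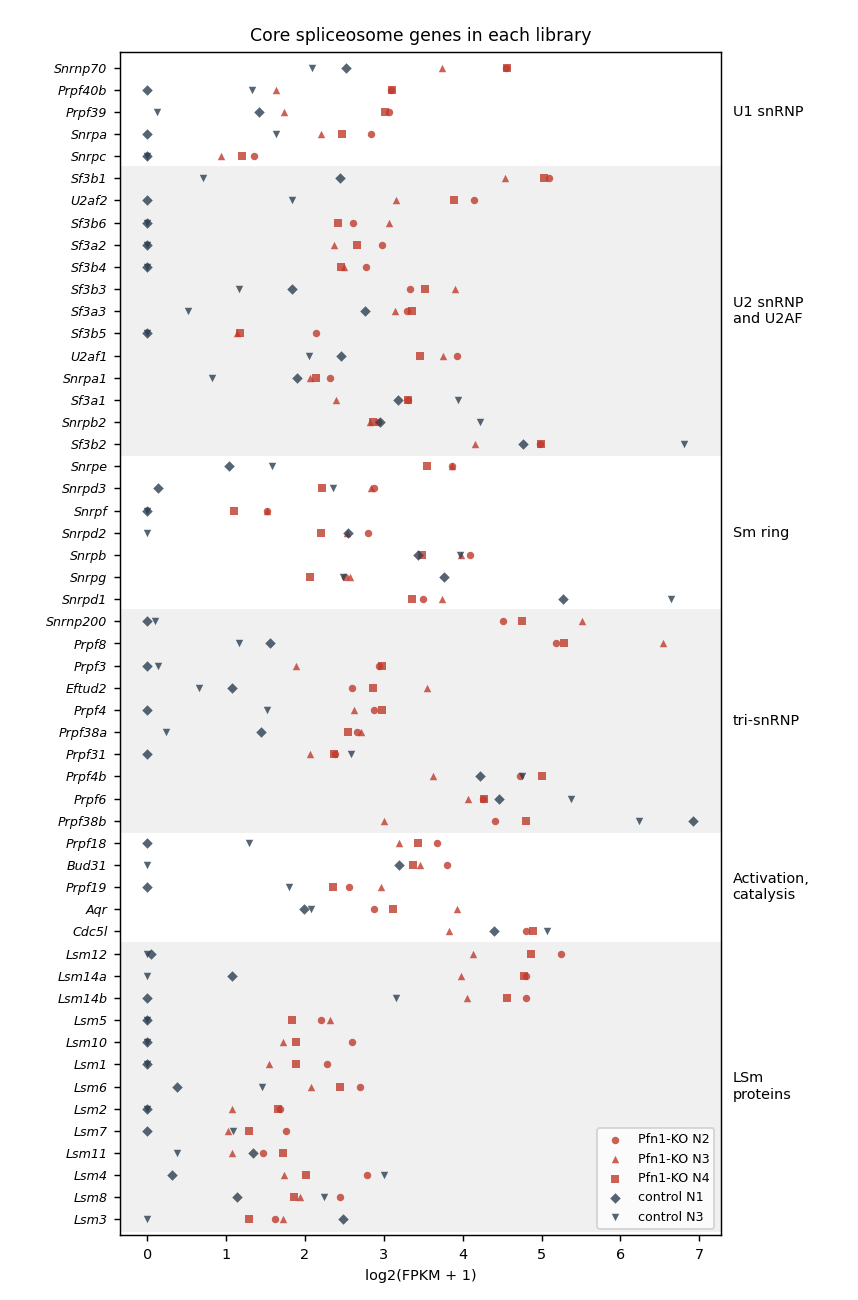
Level of 53 of the 54 core spliceosome genes in each library, as log2(FPKM + 1) on the horizontal axis, with genes grouped by role down the page. Red marks are the 3 Pfn1-KO-labelled libraries and dark marks the 2 controls. No red mark lies at 0, while the dark marks run from both at 0 for 10 genes to both above all red marks for genes such as *Prpf38b* and *Snrpd1*.

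The 2 members called lower were *Prpf38b* and *Snrpd1*. *Prpf38b* encodes a protein related to the yeast splicing factor Prp38, which joins the spliceosome with the tri-snRNP, and lies at chr3:108902805-108911727 on the minus strand of GRCm38. It stood at 20.3, 6.98 and 26.8 FPKM (3254, 1206 and 3387 reads) in Pfn1-KO N2, N3 and N4, against 121 and 74.5 FPKM (19872 and 11815 reads) in control N1 and N3. All 3 *Pfn1*-KO-labelled libraries lay below both controls, with a log2 fold change of -2.51 (SE 0.70, adjusted p = 0.0185, limma with Benjamini-Hochberg). It ranked above 86.1%, 70.6% and 90.9% of the protein-coding genes with values in the *Pfn1*-KO-labelled libraries, and above 99.5% and 98.7% of them in the controls. The call was lost after rescaling to TPM (-1.82, adjusted p = 0.113, limma with Benjamini-Hochberg) and without Pfn1-KO N2 (-2.69, adjusted p = 0.0546).

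*Snrpd1* encodes SmD1, 1 of the 7 proteins of the Sm ring. It stood at 10.3, 12.4 and 9.24 FPKM (487, 631 and 345 reads) in Pfn1-KO N2, N3 and N4, against 37.8 and 99.1 FPKM (1838 and 4641 reads) in control N1 and N3. The 3 *Pfn1*-KO-labelled libraries sat close together and below both controls, which differed from each other by more. The log2 fold change was -2.43 (SE 0.58, adjusted p = 0.0108, limma with Benjamini-Hochberg), and the call was lost under TPM rescaling only (-1.76, adjusted p = 0.119). *Snrpd1* has a near-identical processed pseudogene, *Gm14277*, listed at 0.361, 0.112 and 0.916 FPKM in Pfn1-KO N2, N3 and N4, against 0.352 and 0.365 FPKM in the controls, and how reads were split between them is not known. Another 8 members had a log2 fold change below 0 without a call.

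Low and high members are shown with their most purine-rich coding window, since the members are compared by their share of purines. The 50-base windows below, read from GENCODE vM21 transcripts on GRCm38 and written 5′ to 3′ as in the RNA with T for U, are the most purine-rich that lie within a single coding exon of the gene. The first 2 genes were among the lowest by fold change, of which *Sf3b2* had no call, and the last 3 were the highest. Capitals mark the longest unbroken run of A and G in each window, of 19 bases in *Prpf38b*, 22 in *Sf3b2*, 14 in *Prpf8*, 12 in *Snrnp200* and 16 in *Lsm12*. *Snrpd1*, the other member called lower, is not printed and had a longest run of 14 bases, within the range of the 3 highest.
Prpf38b, exon 6 of 6, chr3:108904466-108904515, minus strand, 90% purines: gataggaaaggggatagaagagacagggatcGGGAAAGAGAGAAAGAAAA
Sf3b2, exon 10 of 21, chr19:5286887-5286936, minus strand, 84% purines: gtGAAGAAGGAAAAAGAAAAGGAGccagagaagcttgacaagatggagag
Prpf8, exon 4 of 42, chr11:75490004-75490053, plus strand, 74% purines: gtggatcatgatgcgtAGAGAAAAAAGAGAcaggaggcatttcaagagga
Snrnp200, exon 4 of 45, chr2:127211638-127211687, plus strand, 76% purines: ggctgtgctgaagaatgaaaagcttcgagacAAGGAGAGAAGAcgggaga
Lsm12, exon 3 of 5, chr11:102167142-102167191, minus strand, 72% purines: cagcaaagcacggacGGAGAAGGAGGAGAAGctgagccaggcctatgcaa

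Over the whole transcript, untranslated parts and exon junctions included, the highest purine share of any 50-base window had a median of 86% (range 70% to 94%) in the 10 members with a log2 fold change below 0. In the 44 members with a log2 fold change above 0 the median was 78% (range 70% to 96%). A window of at least 84% purines was found in 8 of the 10 and in 9 of the 44, and in 22.9% of 11843 protein-coding genes tested. The 84% cut was not fixed in advance. Of the 2 members called lower, *Prpf38b* had 90% and *Snrpd1* 80%. The split at 0 is that of the values as deposited, and its lower side includes *Prpf4b* (-0.04, SE 0.61) and *Cdc5l* (-0.23, SE 0.58). Of members above 0, 26 turned below 0 with quantile normalization and 9 with median-ratio factors. With TPM rescaling 3 turned above 0. Purine shares were not compared again under those scalings. Median transcript length was 3040.5 bases in the 10 and 2198 bases in the 44, and longer transcripts hold more windows. *Lsm11* had the highest share of all members, 96%, and a log2 fold change of 0.56, and *Snrpg* had 1 of the lowest, 70%, with -0.74. Across the 54 members the purine share and the log2 fold change had a Pearson's r of -0.41 and a Spearman's rho of -0.40, against -0.34 and -0.25 across the protein-coding genes tested. Pearson's r was -0.35 with windows within single coding exons, and -0.35 across the 28 members above 0 in every library. These are descriptions across genes that share the same 5 libraries, and genes are not independent replicates. Across the members, transcript length (r = 0.10), number of exons (r = 0.24) and GC content (r = 0.13) had weaker relations with the fold change.

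**Figure D2:**
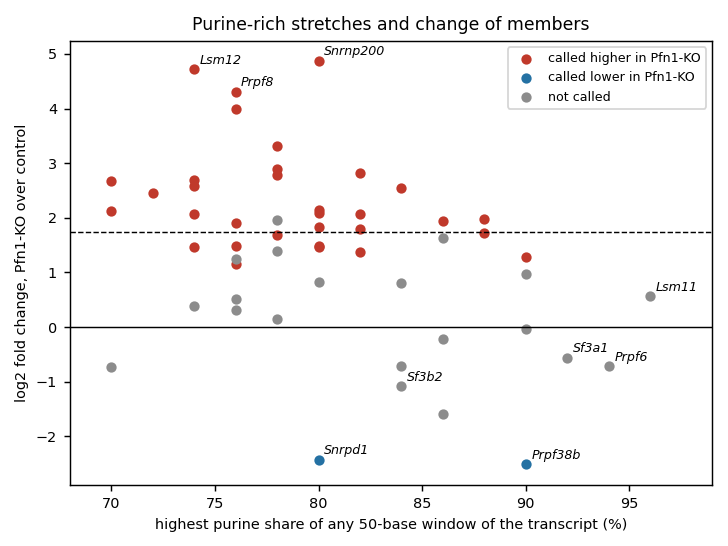
Highest purine share of any 50-base window of the transcript in percent (horizontal axis) and log2 fold change, Pfn1-KO-labelled libraries over controls (vertical axis), for the 54 members. Red points were called higher, blue points lower and grey points neither, and the dashed line is the median of all genes tested, 1.75. With the values as deposited, 8 of the 10 points below 0 lie at 84% or more, as do 9 of the 44 points above 0.

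As grouped here, with *Prpf38a* and *Prpf38b* counted in, the tri-snRNP genes held both the member with the largest increase and the lowest one, *Prpf38b*. Of 10 tested, 6 were called higher (60%, all genes 70.1%) and 1 lower (10%, all genes 2.13%). Their median log2 fold change was 1.93. *Snrnp200*, the helicase that unwinds U4 from U6, stood at 21.8, 44.5 and 25.8 FPKM (3941, 8662 and 3674 reads) in Pfn1-KO N2, N3 and N4, against 0 and 0.0728 FPKM (0 and 13 reads) in control N1 and N3. Its log2 fold change of 4.87 (SE 0.47, adjusted p = 0.00150, limma with Benjamini-Hochberg) was the largest of the members. *Prpf8*, the scaffold around the catalytic centre, stood at 35.2, 92.3 and 38.0 FPKM (6070, 17137 and 5152 reads) in Pfn1-KO N2, N3 and N4, against 1.93 and 1.25 FPKM (341 and 212 reads) in control N1 and N3, a log2 fold change of 4.31 (SE 0.59, adjusted p = 0.00179). *Eftud2*, the GTPase of the U5 snRNP, followed at 5.07, 10.7 and 6.27 FPKM against 1.10 and 0.569 FPKM (2.15, SE 0.44, adjusted p = 0.00601), though 26.9% of its exonic bases lie opposite the exons of *Gm26668* and the strand setting of the counting is not given in the sources used here. *Prpf8*, *Snrnp200* and *Eftud2* were each highest in Pfn1-KO N3, while *Prpf6*, described next, was lowest there.

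Of the U4/U6 proteins, *Prpf3* stood at 6.69, 2.71 and 6.84 FPKM in Pfn1-KO N2, N3 and N4, against 0 and 0.0929 FPKM in control N1 and N3 (2.54, adjusted p = 0.00355, limma with Benjamini-Hochberg). *Prpf4* was also called higher, at 6.30, 5.16 and 6.85 FPKM against 0 and 1.87 FPKM (2.06, adjusted p = 0.0127). *Prpf31*, which holds the U4 RNA, was not called, with control N3 (4.99 FPKM) above and control N1 (0 FPKM) below all 3 *Pfn1*-KO-labelled libraries (0.98, adjusted p = 0.256). *Prpf38a*, which enters with the tri-snRNP, was called higher at 5.30, 5.52 and 4.86 FPKM against 1.70 and 0.182 FPKM (1.80, adjusted p = 0.0124), the opposite direction to its relative *Prpf38b*. Calls of *Prpf4* (2.04, adjusted p = 0.0609) and *Prpf38a* (1.79, adjusted p = 0.0577) were lost without Pfn1-KO N2, that of *Prpf4* also without Pfn1-KO N4 (1.99, adjusted p = 0.0564) and that of *Prpf38a* without control N3 (1.20, adjusted p = 0.0554). Without control N1, *Prpf4* had 1.30 (adjusted p = 0.0429). *Prpf6*, which bridges U5 with U4/U6, stood at 18.1, 15.8 and 18.3 FPKM in the *Pfn1*-KO-labelled libraries, against 21.01 and 40.34 FPKM in the controls (-0.72, adjusted p = 0.237). All 3 values lay below both controls without a call. *Prpf4b*, a kinase that acts on tri-snRNP proteins, stood at 25.5, 11.3 and 31.2 FPKM against 17.6 and 26.02 FPKM (-0.04, adjusted p = 0.958, limma with Benjamini-Hochberg). Under quantile normalization, *Eftud2*, *Prpf4* and *Prpf38a* turned below 0 (*Eftud2* -0.21, adjusted p = 0.803), while *Snrnp200* kept its call in all 16 settings it was tested in. *Prpf8* kept it in 15 of 17, and lost it with limma-voom (3.94, adjusted p = 0.308) and quantile normalization (2.60, adjusted p = 0.0505).

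**Figure D3:**
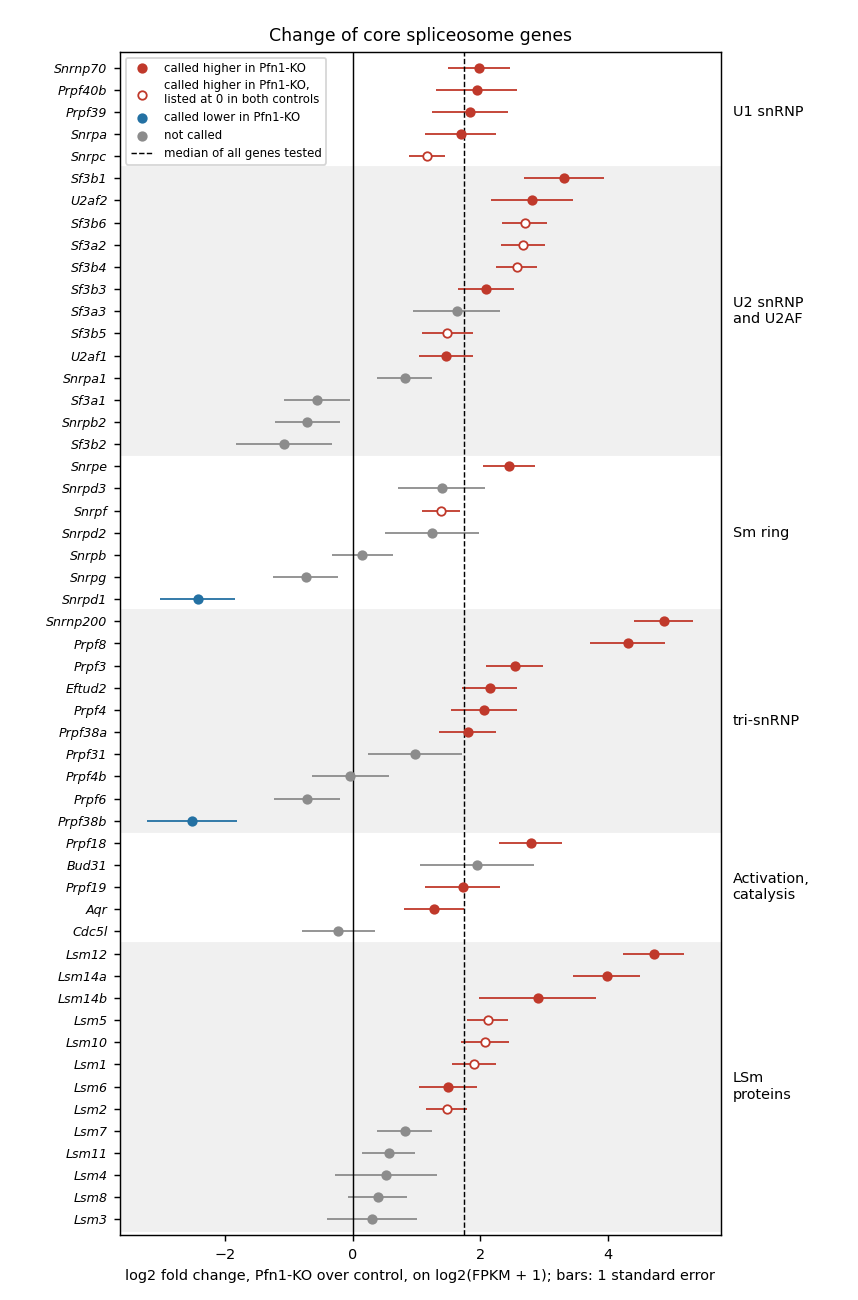
Log2 fold change, Pfn1-KO-labelled libraries over controls, on log2(FPKM + 1) for 53 of the 54 members, with bars of 1 standard error from limma and genes grouped by role. Red points were called higher (open where both controls list the gene at 0), blue points lower and grey points neither, and the dashed line is the median of all genes tested, 1.75. Called-lower points are *Prpf38b* (-2.51) and *Snrpd1* (-2.43), and the largest increases are *Snrnp200* (4.87), *Lsm12* (4.72) and *Prpf8* (4.31). The members' median is 1.56, and -0.44 under quantile normalization.

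Of 13 genes of the U2 snRNP and U2AF, 8 were called higher (61.5%, all genes 70.1%) and none lower (all genes 2.13%). Their median log2 fold change was 1.63. *Sf3b1*, the SF3b scaffold that clamps the branch point, stood at 33.3, 22.2 and 31.6 FPKM (8750, 6287 and 6536 reads) in Pfn1-KO N2, N3 and N4, against 4.44 and 0.624 FPKM (1198 and 162 reads) in control N1 and N3. The groups were far apart (3.32, SE 0.62, adjusted p = 0.00459, limma with Benjamini-Hochberg), and the call held in 15 of 17 settings. *Sf3b3*, a scaffold protein of the same complex, stood at 9.03, 13.996 and 10.48 FPKM against 2.56 and 1.23 FPKM (2.09, adjusted p = 0.00662), with a call in 13 of 17 settings and -0.047 under quantile normalization. *Sf3b2*, whose protein binds that of *Sf3b4* beside the branch point, was not called. It stood at 30.5, 16.8 and 31.0 FPKM in the *Pfn1*-KO-labelled libraries, against 26.3 and 111 FPKM in control N1 and N3, so the groups overlapped and control N3 alone was high (-1.08, SE 0.75, adjusted p = 0.221).

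The remaining SF3b and SF3a genes included 4 that both controls list at 0, so no fold is given for them. *Sf3b6*, whose protein sits next to the branch point adenosine, stood at 5.10, 7.34 and 4.33 FPKM in Pfn1-KO N2, N3 and N4. *Sf3b4*, which contacts the pre-mRNA near the branch point, stood at 5.81, 4.65 and 4.48 FPKM, and *Sf3a2*, of the SF3a complex, at 6.89, 4.16 and 5.30 FPKM. *Sf3b5*, the smallest in level, stood at 3.41, 1.19 and 1.26 FPKM. All 4 thus had from 88 to 521 reads in every *Pfn1*-KO-labelled library and none in the controls. Of the other SF3a genes, *Sf3a3* stood at 8.83, 7.80 and 9.26 FPKM against 5.77 and 0.425 FPKM (1.63, adjusted p = 0.0650), apart but not called. *Sf3a1* stood at 8.85, 4.26 and 8.86 FPKM against 8.03 and 14.4 FPKM (-0.56, adjusted p = 0.345).

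*Snrpb2* and *Snrpa1*, whose proteins bind a stem-loop of U2 RNA as a pair, were not called and lay on opposite sides of 0. *Snrpb2* stood at 6.57, 6.05 and 6.27 FPKM in the *Pfn1*-KO-labelled libraries, against 6.72 and 17.6 FPKM in the controls (-0.72, adjusted p = 0.231, limma with Benjamini-Hochberg). *Snrpa1* stood at 3.97, 3.17 and 3.41 FPKM against 2.73 and 0.760 FPKM (0.82, adjusted p = 0.122). Of the U2AF heterodimer, *U2af2*, which binds the polypyrimidine tract, stood at 16.6, 7.89 and 13.8 FPKM against 0 and 2.56 FPKM (2.81, adjusted p = 0.00908). *U2af1*, which reads the AG of the 3′ splice site, stood at 14.2, 12.4 and 10.01 FPKM against 4.498 and 3.14 FPKM (1.46, adjusted p = 0.0212). Both were called higher but not without Pfn1-KO N2 (*U2af2* 2.60, adjusted p = 0.0515, and *U2af1* 1.35, adjusted p = 0.0782). The call of *U2af1* was also lost without control N3 (1.25, adjusted p = 0.0601), and it had a fold change that turned below 0 under median-ratio scaling and quantile normalization. Without control N1, *Sf3b2* (-2.10, adjusted p = 0.0191) and *Snrpb2* (-1.35, adjusted p = 0.0389) were called lower.

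Of the 6 genes of the U1 snRNP, 5 were called higher (83.3%, all genes 70.1%) and none lower (all genes 2.13%). Their median log2 fold change was 1.76. *Snrnp70*, which binds the first stem-loop of U1 RNA, stood at 22.5, 12.3 and 22.6 FPKM (3961, 2326 and 3134 reads) in Pfn1-KO N2, N3 and N4, against 4.73 and 3.25 FPKM (855 and 565 reads) in control N1 and N3. Its log2 fold change was 1.98 (SE 0.49, adjusted p = 0.0120, limma with Benjamini-Hochberg). *Prpf39*, a homolog of the yeast U1 protein Prp39, stood at 7.33, 2.33 and 7.07 FPKM against 1.66 and 0.0842 FPKM (1.84, adjusted p = 0.0310). *Snrpa*, which encodes the A protein of U1, was called higher at 1.69, and *Prpf40b*, a U1-associated protein, at 1.94, both with control N1 at 0. *Snrpc*, which encodes the C protein of U1 and steadies the pairing with the 5′ splice site, had 1.56, 0.906 and 1.30 FPKM (235, 147 and 154 reads) in the *Pfn1*-KO-labelled libraries, with both controls at 0. None of these calls was kept without Pfn1-KO N2, where *Prpf39* (1.61, adjusted p = 0.123), *Snrnp70* (1.84, adjusted p = 0.0520), *Snrpa* (1.52, adjusted p = 0.121) and *Prpf40b* (1.70, adjusted p = 0.124) lost theirs and *Snrpc* was not tested. Without control N1, *Snrpa* had 0.87 (adjusted p = 0.149) and *Prpf40b* 1.28 (adjusted p = 0.106), and without control N3 *Prpf39* had 1.19 (adjusted p = 0.114). Under quantile normalization *Prpf39* turned to -0.48, *Snrpa* to -0.52 and *Prpf40b* to -0.21. *Gm8974*, a near-identical pseudogene of *Snrpc*, stood at 0.994, 0.168 and 1.72 FPKM in Pfn1-KO N2, N3 and N4, with both controls at 0.

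The 7 Sm proteins form a single ring with 1 copy of each, and their genes did not move as 1 group. Of the 7, 2 were called higher (28.6%, all genes 70.1%) and 1 lower (14.3%, all genes 2.13%). Their median log2 fold change was 1.24. *Snrpe* (SmE) stood at 13.5, 13.5 and 10.7 FPKM (428, 462 and 266 reads) in Pfn1-KO N2, N3 and N4, against 1.05 and 1.98 FPKM (34 and 62 reads) in control N1 and N3, a log2 fold change of 2.45 (SE 0.41, adjusted p = 0.00310, limma with Benjamini-Hochberg). The call held in 15 of 17 settings. *Snrpd1*, described above, went the other way, and within the ring the order of the genes differed between groups. In FPKM, *Snrpb* was the highest Sm gene in Pfn1-KO N2 and N3 and *Snrpe* in Pfn1-KO N4, while *Snrpd1* was the highest in both controls.

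*Snrpb*, which encodes SmB, stood at 16.1, 14.7 and 10.2 FPKM in the *Pfn1*-KO-labelled libraries, against 9.82 and 14.6 FPKM in the controls (0.15, adjusted p = 0.781, limma with Benjamini-Hochberg). *Snrpg* (SmG) stood at 4.69, 4.94 and 3.19 FPKM against 12.5 and 4.58 FPKM (-0.74, adjusted p = 0.220). *Snrpd3* (SmD3) stood at 6.31, 6.14 and 3.63 FPKM against 0.0981 and 4.10 FPKM (1.40, adjusted p = 0.0995). For all 3 the groups overlapped, and for *Snrpg* and *Snrpd3* the 2 controls lay far apart. *Snrpd2* (SmD2) stood at 5.95, 4.78 and 3.61 FPKM against 4.83 and 0 FPKM (1.24, adjusted p = 0.163). *Snrpf* (SmF) was at 1.86, 1.87 and 1.15 FPKM (37, 40 and 18 reads) with both controls at 0, and 85.4% of its exonic bases lie opposite exons of *Ccdc38* and *4933408J17Rik*, so without the strand these reads cannot be told apart. *Snrpe*, *Snrpf* and *Snrpg* have near-identical pseudogenes in the table, *Snrpert*, *Gm13092* and *Gm8186*. *Snrpert* stood at 2.95, 3.17 and 3.15 FPKM against 0 and 0 FPKM. *Gm13092* stood at 3.33, 0.155 and 2.54 FPKM against 1.14 and 0.337 FPKM, and *Gm8186* at 3.75, 6.09 and 3.09 FPKM against 0.913 and 0.190 FPKM. How reads were split between each gene and its copy is not known.

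Of the 13 LSm genes, 8 were called higher (61.5%, all genes 70.1%) and none lower (all genes 2.13%). Their median log2 fold change was 1.49. Those that rose most encode proteins that are not parts of the spliceosome. *Lsm12*, known as a binding partner of ataxin-2, stood at 36.9, 16.4 and 28.1 FPKM (2037, 977 and 1221 reads) in Pfn1-KO N2, N3 and N4, against 0.0353 and 0 FPKM (2 and 0 reads) in control N1 and N3. Its log2 fold change was 4.72 (SE 0.48, adjusted p = 0.00150, limma with Benjamini-Hochberg), and it was called higher in all 16 settings it was tested in, though the size of a fitted change from so few control reads depends on the pseudocount. *Lsm14a*, a protein of P-bodies, stood at 26.8, 14.8 and 26.4 FPKM against 1.10 and 0 FPKM (3.98, SE 0.52, adjusted p = 0.00171). Its paralog *Lsm14b* stood at 26.8, 15.6 and 22.7 FPKM against 0 and 7.89 FPKM, with a wider error (2.90, SE 0.91, adjusted p = 0.0278). It was called in 7 of 16 settings, with 1.32 (adjusted p = 0.0661) without control N1 and 4.47 (adjusted p = 0.000442) without control N3, and the call was also lost without any 1 of the *Pfn1*-KO-labelled libraries.

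*Lsm2* to *Lsm8* encode the ring on the 3′ end of U6 RNA. Of these 7 genes 3 were called higher, *Lsm2*, *Lsm5* and *Lsm6*, and 4 were not, while 70.1% of all genes tested were called higher. *Lsm6* stood at 5.50, 3.20 and 4.44 FPKM in Pfn1-KO N2, N3 and N4, against 0.3001 and 1.73 FPKM in control N1 and N3 (1.49, SE 0.45, adjusted p = 0.0245, limma with Benjamini-Hochberg), though its call was lost without Pfn1-KO N2 (1.34, adjusted p = 0.0979), Pfn1-KO N4 (1.47, adjusted p = 0.0837) or control N1 (0.95, adjusted p = 0.121) and it turned to -0.96 under quantile normalization. Of its near-identical pseudogenes, *Gm2531* stood at 5.16, 0.864 and 6.66 FPKM and *Gm12571* at 3.03, 0.993 and 2.26 FPKM, with both controls at 0. How reads were split between them and *Lsm6* is not known. *Lsm5* stood at 3.61, 3.96 and 2.57 FPKM, and *Lsm2* at 2.21, 1.11 and 2.15 FPKM, with both controls at 0 for each. *Lsm8*, the member found only in the nuclear ring, stood at 4.42, 2.83 and 2.63 FPKM against 1.21 and 3.71 FPKM (0.39, adjusted p = 0.456). *Lsm4* stood at 5.92, 2.32 and 3.02 FPKM against 0.244 and 7.01 FPKM (0.52, adjusted p = 0.569), and its direction rested on which control was kept, with -0.82 without control N1 and 1.86 without control N3. *Lsm3* (0.31) and *Lsm7* (0.81) had no call either, each with a control at 0.

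*Lsm1* takes the place of *Lsm8* in the cytoplasmic ring that leads mRNAs to decapping, and stood at 3.85, 1.92 and 2.702 FPKM in the *Pfn1*-KO-labelled libraries with both controls at 0. *Lsm10* and *Lsm11* replace SmD1 and SmD2 in the U7 snRNP, which processes histone pre-mRNA. *Lsm10* stood at 5.05, 2.30 and 2.68 FPKM (110, 54 and 46 reads) in Pfn1-KO N2, N3 and N4, with both controls at 0. *Lsm11* stood at 1.76, 1.11 and 2.28 FPKM against 1.52 and 0.299 FPKM (0.56, adjusted p = 0.244, limma with Benjamini-Hochberg). The controls thus list 1 of this pair at 0 and the other above 0 in both libraries.

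Among the 5 genes of activation and catalysis, 3 were called higher (60%, all genes 70.1%) and none lower (all genes 2.13%). Their median log2 fold change was 1.72. *Prpf18*, which acts at the exon-joining step, stood at 11.7, 8.15 and 9.82 FPKM in Pfn1-KO N2, N3 and N4, against 0 and 1.45 FPKM in control N1 and N3 (2.79, adjusted p = 0.00377, limma with Benjamini-Hochberg). *Prpf19*, a ubiquitin ligase, and *Cdc5l* belong to the same complex. *Prpf19* stood at 4.87, 6.82 and 4.11 FPKM against 0 and 2.49 FPKM (1.72, adjusted p = 0.0352), while *Cdc5l* stood at 26.9, 13.2 and 28.6 FPKM against 20.1 and 32.5 FPKM (-0.23, adjusted p = 0.728), with groups that overlapped. The call of *Prpf19* held in 7 of 16 settings and was lost without any 1 library other than control N3, with 0.82 (adjusted p = 0.169) without control N1, 2.62 (adjusted p = 0.00212) without control N3 and -0.39 under quantile normalization. *Bud31*, at 13.0, 9.95 and 9.36 FPKM against 8.10 and 0 FPKM, had 1.95 with a wide error (SE 0.89, adjusted p = 0.0849). *Aqr*, a helicase that binds the intron, stood at 6.35, 14.2 and 7.70 FPKM against 2.96 and 3.23 FPKM. Its call (1.28, SE 0.47, adjusted p = 0.0450) had the highest adjusted p of the 32 and held in 4 of 17 settings, with a fold change below 0 under median-ratio scaling (-0.25) and quantile normalization (-0.85).

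The summed level of the members overlapped between groups and its make-up did not. The members summed to 609, 518 and 573 FPKM in Pfn1-KO N2, N3 and N4, against 362 and 552 FPKM in control N1 and N3. In the *Pfn1*-KO-labelled libraries the 3 highest members were *Prpf8* and *Sf3b1* with *Lsm12* in Pfn1-KO N2, *Snrnp200* in Pfn1-KO N3 and *Prpf4b* in Pfn1-KO N4, and they held 17.3%, 30.7% and 17.6% of the sum. In both controls 3 genes, *Prpf38b*, *Snrpd1* and *Sf3b2*, held 51.1% and 51.6% of the sum. The median member stood at 6.63, 6.10 and 6.84 FPKM in the *Pfn1*-KO-labelled libraries, against 1.10 and 1.35 FPKM in the controls. At least 1 FPKM was reached by 54, 53 and 54 members, against 29 and 30 members. As a share of the FPKM of nuclear protein-coding genes, the members stood at 0.320%, 0.349% and 0.337% in the *Pfn1*-KO-labelled libraries, against 0.489% and 0.644% in the controls, the opposite order to their median level. With values rescaled to that total, 17 members were called higher and 7 lower.

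**Figure D4:**
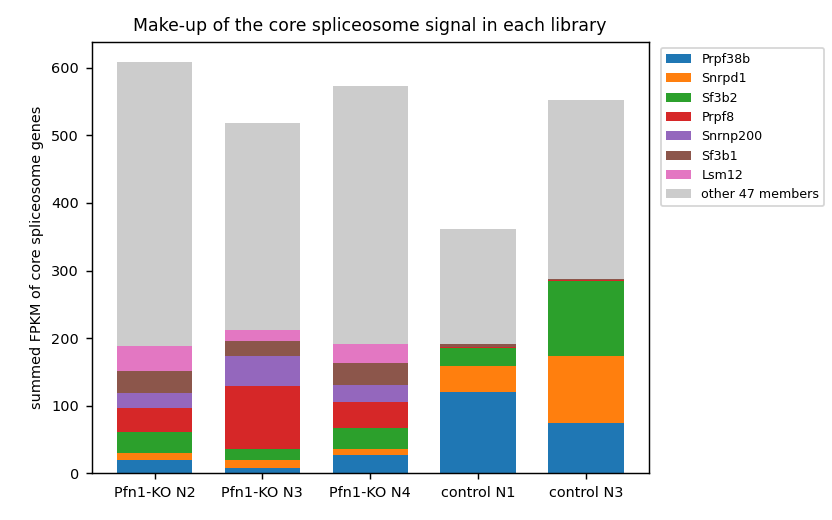
Summed FPKM of the 54 core spliceosome genes in each library, with the parts of 7 genes in colour and the others in grey. *Prpf8*, *Snrnp200*, *Sf3b1* and *Lsm12* take up most of the coloured part in the Pfn1-KO-labelled libraries, while *Prpf38b*, *Snrpd1* and *Sf3b2* fill 51.1% and 51.6% of the bars of control N1 and N3.

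The 3 *Pfn1*-KO-labelled libraries were not alike. Of the 54 members, 33 were lowest and 14 highest in Pfn1-KO N3, which had the high rRNA gene level, and of all genes tested 74.8% were lowest and 14.8% highest there. The median log2 difference of Pfn1-KO N3 to the mean of Pfn1-KO N2 and N4 was -0.33 over the members and -0.50 over the protein-coding genes tested. Members highest in Pfn1-KO N3 included *Prpf8*, *Snrnp200*, *Eftud2*, *Aqr*, *Sf3b3*, *Prpf19* and *Sf3b6*. *Prpf8* stood furthest above the other libraries there, by 1.31 on the log2 scale, and *Prpf38b* furthest below them, at -1.61. The counts of calls hardly moved without Pfn1-KO N3, with 29 members higher and 2 lower.

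Spliceosome genes outside this naming rule gave another balance. The 46 other spliceosome genes were listed by their known roles, with earlier results of these data known. Of these, 13 were called higher (28.3%) and 13 lower (28.3%), with a median log2 fold change of 0.50. Of all genes tested, 70.1% were called higher and 2.13% lower. *Zrsr2*, a U2AF1-related protein of the minor spliceosome, stood at 6.58, 2.13 and 7.48 FPKM in Pfn1-KO N2, N3 and N4, against 83.3 and 133 FPKM in control N1 and N3 (-4.18, adjusted p = 0.00223, limma with Benjamini-Hochberg). *Zcrb1*, another protein of the minor spliceosome, stood at 16.8, 6.83 and 14.6 FPKM against 215 and 105 FPKM (-3.54, adjusted p = 0.00397). The others called lower were *Snrnp27*, *Ddx46*, *Zmat2*, *Syf2*, *Htatsf1*, *Slu7*, *Sart3*, *Rbm8a*, *Ddx23*, *Snw1* and *Snrnp48*. *Bcas2*, which binds *Cdc5l* protein in the complex of *Prpf19*, was called higher (3.01, adjusted p = 0.00164), as was *Tfip11*, a factor of spliceosome disassembly (2.95, adjusted p = 0.00469). The difference between the members and these genes was not tested.

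Genes that build or work beside the members' complexes were called higher at shares of 66.7%, 75% and 80% in 3 lists, near the 70.1% over all genes tested, of which 2.13% were called lower. Of 15 snRNP assembly genes tested, 10 were called higher and none lower (median 1.64), and *Strap*, a partner of the SMN complex, stood at 38.6, 39.7 and 31.9 FPKM in Pfn1-KO N2, N3 and N4, against 0 and 1.70 FPKM in control N1 and N3 (4.51, adjusted p = 0.00155, limma with Benjamini-Hochberg). *Ddx20*, the helicase of that complex, was called higher too (2.38), while *Prmt5*, which methylates Sm proteins, and *Snupn*, which imports snRNPs, had -0.37 (adjusted p = 0.688) and -0.35 (adjusted p = 0.578). Of 8 partners of the cytoplasmic LSm ring in decapping, 6 were called higher (median 2.28), among them the decapping enzyme *Dcp2* (3.24, adjusted p = 0.00312) and the exonuclease *Xrn1* (2.60). *Ddx6* (0.86, adjusted p = 0.249) and *Dcp1a* (1.44, adjusted p = 0.0722) were not called. Of 5 genes of histone pre-mRNA processing tested, 4 were called higher (median 2.04), with *Sympk* at 2.82, *Slbp* at 2.25 and *Cpsf2* at 1.74, and *Casp8ap2* was not (0.84, adjusted p = 0.192).

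The number of members called, and their direction, changed with the scaling. As deposited, the values gave 70.1% of all genes tested called higher and 2.13% lower, and counts for other scalings are given at the end. With the values as deposited 32 members were called higher and 2 lower, with median-ratio size factors 15 and 11, and with quantile normalization 3 and 8. Among the members lower under both of those scalings were *Prpf6*, *Sf3a1*, *Snrpb2* and *Snrpg*, beside *Prpf38b* and *Snrpd1*. The members still called higher under quantile normalization were *Lsm12*, *Lsm14a* and *Snrnp200*. Of the 54 members, 2 (*Lsm12* and *Snrnp200*) were called higher in every setting they were tested in, and none was called lower in every setting. *Snrpd1* was called lower in 16 of 17 settings and *Prpf38b* in 15 of 17, the one as reported included. Leaving out 1 library ended the calls of 16 of the 34 members called. Without Pfn1-KO N2, 13 of 33 lost their call, without Pfn1-KO N3 3 of 34 (*Lsm14b*, *Prpf19* and *Snrpa*), and without Pfn1-KO N4 8 of 33. Without control N1, 9 of 34 lost it and without control N3 7 of 34, *Sf3b5*, *Snrpc* and *Snrpf* in both cases.

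**Figure D5:**
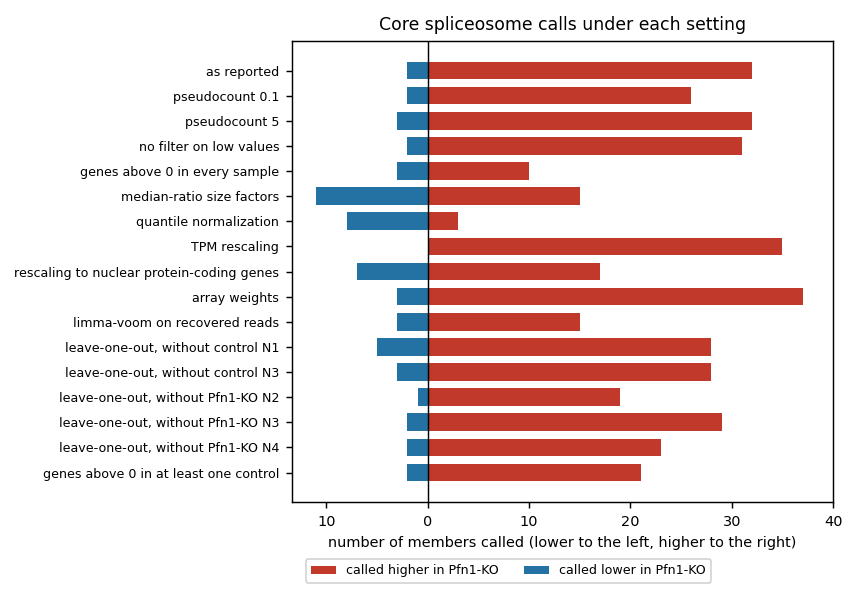
Number of core spliceosome genes called higher (red, to the right) and lower (blue, to the left) in the Pfn1-KO-labelled libraries under each setting, from 32 higher and 2 lower as reported to 3 higher and 8 lower under quantile normalization. Settings named leave-one-out drop the library given, and the last setting was chosen after seeing the data.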

How the data were processed

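RNA of podocyte TRAP samples was sequenced for 3 samples labelled *Pfn1*-KO and 2 controls. Per the methods and the submitters' processing notes, the authors used fastp 0.20 for trimming, STAR 2.7.9 for alignment (GRCm38.p6) and featureCounts 2.0.0 with GENCODE vM25 for counting, and kept genes with at least 6 reads in at least 20% of samples. The table deposited by the authors holds FPKM per gene in 23010 rows, of which 1991 carry no values. The methods name TPM, but column sums differ, so the values were taken as FPKM. Whole reads were recovered by multiplying FPKM by length and library size for all 20414 genes that matched GENCODE vM21 with their version, within 0.02 of a read (20985 matched with or without it), and for 53 of the 54 members. Columns were matched to a group by name and not to a replicate number. An FPKM of 1 in at least 2 of 5 samples was required, which left 14631 genes, and groups were compared on log2(FPKM + 1) by limma 3.58.1 (R 4.3.3) with a mean-variance trend and Benjamini-Hochberg adjustment over all genes tested (two-sided, threshold 0.05). An exact permutation test of 3 against 2 samples cannot go below 0.1 (two-sided), so none is given. Over the members, the median within-group SD of the log2 levels was 0.72 in the controls and 0.32 in the *Pfn1*-KO-labelled libraries. How the comparison behaves under such unequal spread was not tested.

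Alternatives were pseudocounts of 0.1 and 5, other filters, quantile normalization, median-ratio size factors, rescaling to TPM or to nuclear protein-coding genes, array weights, limma-voom on recovered reads, and leaving out each library. A filter on genes above 0 in at least 1 control was chosen after seeing the data. Overlaps, purine windows and near copies (at least 95% identity over at least 50% of the coding length, BLAST 2.17.0; 15 members, 8 with a copy in the table) came from GENCODE vM21. Python 3.11.15, pandas 2.3.3, numpy 2.4.6 and matplotlib 3.10.9 served for tables and figures. The members, the lists of related genes and the rule for named genes were chosen with earlier results of these data known. The rule named every member called lower, in each role group the 2 members above 0 in every sample with the largest change either way and the one with the highest mean FPKM, 6 members at 0 in both controls, 2 genes each way of each other list, and *Pfn1*. Other members were named for their roles, after their values were seen. Single-gene values of some genes are not reported here.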

Additional observations from a re-analysis of the deposited data

How the results depend on the processing

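As reported, 32 members were called higher and 2 lower (median log2 fold change 1.56), 10251 of all genes higher and 312 lower (median 1.75), and 13 of the other spliceosome genes higher and 13 lower. Leaving out each library gave 19 to 29 members higher, 1 to 5 lower and a median of 1.43 to 1.66, all genes 6746 to 10623 higher and 174 to 455 lower, and the other spliceosome genes 7 to 14 higher and 8 to 14 lower. The lowest counts of members came without Pfn1-KO N2 (19 higher, 1 lower) and the most members lower without control N1 (5). The members' median was 2.94 with a pseudocount of 0.1, 0.71 with 5 and 1.70 with array weights. With genes above 0 in every sample, 10 of 28 members were higher (median 0.69), with 2440 of all genes and 4 other spliceosome genes higher. With genes above 0 in at least 1 control, chosen after seeing the data, 21 of 44 members, 4987 of all genes and 8 other spliceosome genes were higher. Median-ratio size factors gave 15 members higher and 11 lower (median 0.65), 904 of all genes lower and 5 other spliceosome genes higher. Quantile normalization gave 3 and 8 (median -0.44), all genes 1023 higher and 1806 lower, and 0 other spliceosome genes higher in limma. TPM rescaling gave 35 members higher and 0 lower in limma (median 2.71), 98 of all genes and 3 other spliceosome genes lower. Rescaling to nuclear protein-coding genes gave 17 and 7 (median 1.91), 584 of all genes lower and 6 other spliceosome genes higher. Limma-voom on recovered reads gave 15 of 53 members higher and 3 lower (median 2.78), 6023 of all genes and 4 other spliceosome genes higher. The median of all genes was 0.98 with median-ratio factors, -0.09 with quantile normalization, 2.93 with TPM rescaling, 3.01 with nuclear protein-coding genes and 4.80 with limma-voom.

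Of members above 0 as reported, 26 turned below 0 with quantile normalization and 9 with median-ratio factors. In log2 fold change, median-ratio factors gave *Aqr* -0.25, *Lsm3* -0.54, *Lsm11* -0.38, *Lsm4* -0.72, *Lsm8* -0.95, *Prpf31* -0.14, *Snrpa1* -0.43, *Snrpb* -1.55, *U2af1* -0.13, *Casp8ap2* -0.77, *Ddx6* -0.93 and *Pfn1* -0.70. Quantile normalization gave *Aqr* -0.85, *Eftud2* -0.21, *Lsm3* -1.33, *Lsm11* -1.36, *Lsm4* -1.66, *Lsm6* -0.96, *Lsm7* -0.98, *Lsm8* -1.68, *Prpf4* -0.21, *Prpf19* -0.39, *Prpf31* -1.02, *Prpf38a* -0.52, *Prpf39* -0.48, *Prpf40b* -0.21, *Sf3a3* -0.54, *Sf3b3* -0.047, *Snrpa* -0.52, *Snrpa1* -1.35, *Snrpb* -1.48, *Snrpd2* -0.74, *Snrpd3* -1.003, *U2af1* -0.53, *Casp8ap2* -1.13, *Cpsf2* -0.24, *Dcp1a* -0.54, *Ddx6* -0.0405, *Slbp* -0.30 and *Pfn1* -0.36, and the 4 others, *Lsm2*, *Sf3b5*, *Snrpc* and *Snrpf*, are at 0 in both controls. TPM rescaling gave *Cdc5l* 0.50, *Prpf4b* 0.69, *Sf3a1* 0.12, *Prmt5* 0.34 and *Snupn* 0.32, and array weights *Cdc5l* 0.066 and *Prpf4b* 0.27. Nuclear protein-coding genes gave *Casp8ap2* -0.13, *Ddx6* -0.19, *Lsm8* -0.47 and *Snrpb* -0.91, and limma-voom *Casp8ap2* -0.061, *Ddx6* -0.055, *Lsm8* -0.33 and *Snrpb* -0.80. Over the fits that leave out a library, *Cdc5l* ran from -0.56 to 0.11, *Lsm4* from -0.82 to 1.86, *Lsm8* from -0.16 to 0.94, *Prmt5* from -1.67 to 0.92 and *Snupn* from -1.17 to 0.46, and *Lsm4*, *Lsm8* and *Snupn* changed sign without control N1, *Cdc5l* and *Prmt5* without control N3, and *Cdc5l* without Pfn1-KO N3. Without control N1 *Prpf31* had -0.31 and *Snrpb* -0.12, without control N3 *Lsm3* -0.93, *Snrpd2* -0.034 and *Prpf4b* 0.23, and without Pfn1-KO N3 *Prpf4b* 0.38. The cause of these changes was not tested. No paired analysis was possible because the columns of the table carry no replicate number that the labels tie to a sample. Library sizes were 18186900 to 24871893 reads, but nuclear protein-coding genes summed to 148387 to 190200 FPKM in the *Pfn1*-KO-labelled libraries, against 73907 and 85683 FPKM in the controls, and 41% of genes tested stood at 0 in both controls, so levels in the controls near 0 rest on few reads.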
